A study of Bombyx mori with 6 samples.

Results

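The silkworm genes Cyce, Cdt1, BmGEMININ, Mcm7, Cdc25, Cap-d3 and Borealin act in DNA replication, mitotic entry and chromosome segregation. They were taken by NCBI gene symbol, 7 of the 15884 genes in the deposited count table, and all 7 passed the filter on low counts. Transcripts were counted by RNA sequencing in testes of Bombyx mori larvae on day 5 of the fifth instar. The wild-type strain 898WB (WT) and a genetic male sterile line with the genotype given as mutant type (GMS) were each measured in 3 libraries. The labels name neither the mutated gene nor any treatment. The series' design text calls the libraries biological replicates, but no label says how many animals a library held. A p-value here therefore sets the group difference against variation between libraries, which is not known to be variation between single animals.

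Before S phase, the origin recognition complex and Cdt1 load the MCM helicase, of which Mcm7 is a subunit, onto origins of replication. Geminin binds Cdt1 and blocks reloading until the cell has divided. Cyclin E with the kinase CDK2 starts S phase, and Cdc25 phosphatases activate CDK1 by removing inhibitory phosphates. Condensin II, which contains the subunit CAP-D3, compacts chromosomes, and Borealin holds the chromosomal passenger complex of Aurora B, INCENP and survivin together. In a larval testis, spermatogonia divide by mitosis, spermatocytes replicate their DNA before meiosis, and spermatids no longer replicate.

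The libraries held 19627477 to 28358501 counted reads. WT replicate 3 stood apart, with a correlation of 0.985 and 0.982 with the other WT libraries across genes, against 0.995 between those. Log2 changes of the 7 genes and of the ratios are therefore also given without it. WT replicate 3 was set apart on these same values, so a p-value without it is no separate evidence. Leaving it out also raised the share of all genes called, to 29% in each direction. Germ line markers were present. Of 5 tested, 3 were higher in GMS (Vlg, Aubergine and Dmc1), 1 was lower (Tudor-SN) and Ago3 was not called. Their summed level was 572 to 591 CPM in WT and 621 to 643 CPM in GMS. CPM is the read count scaled to library size with TMM factors, which correct for differences in RNA composition. The germ line gene Boule had 1 read in WT and 2 in GMS. Of 2 spermatid markers both were lower, with a summed level of 31834 to 36479 CPM in WT and 26021 to 26719 in GMS. In bulk RNA, fewer cells of a type and less RNA per cell cannot be told apart.

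Of the 7 genes, 4 rose in GMS, 0 fell and 3 did not pass the test. Cyce and Cap-d3 stood 1.70-fold higher in GMS, Borealin 1.45-fold and Cdt1 1.29-fold, while BmGEMININ, the gene of the Cdt1 inhibitor, was at 0.97 times its WT level. Of all 12029 tested genes, 36.2% passed an adjusted p of 0.05 in edgeR's quasi-likelihood test, 17.6% upward and 18.6% downward in GMS. The median log2 change was 0.37 over the 7 genes and 0.05 over all genes tested, the latter -0.00011 without WT replicate 3. A total of 6 of the 7 changes were above 0, against 55.1% of all genes, and 0 of 7 reached a 2-fold change, which 10.3% of all genes did with a call. The CPM of the groups did not overlap for 5 of the 7 genes, each higher in GMS, where 26.2% of all genes did so upward and 24.8% downward. Without WT replicate 3 the same counts of 4 and 0 genes were called, beside 29% of all genes in each direction.

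**Figure D1:**
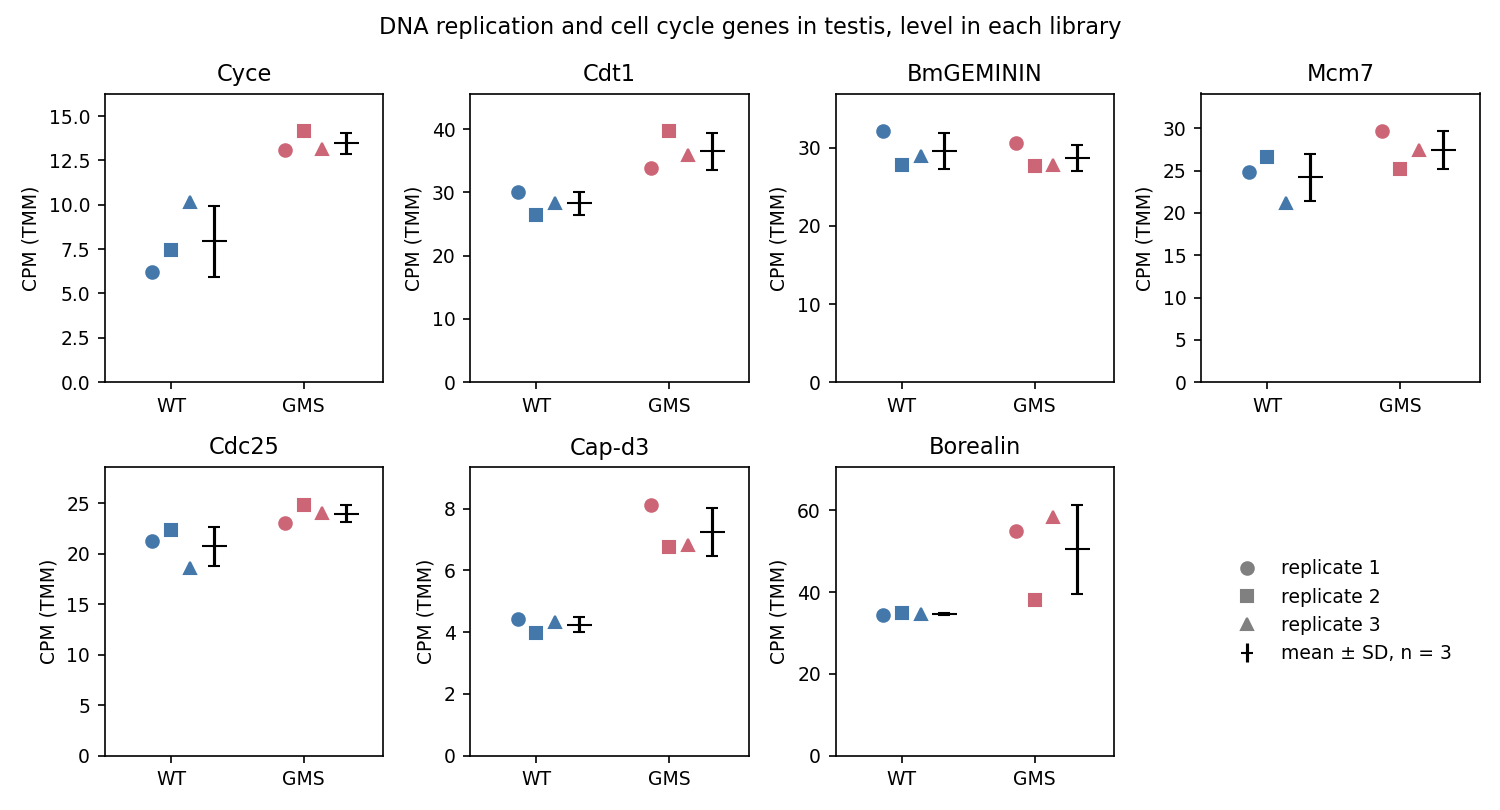
Level of each gene in CPM (TMM-normalised read count, vertical axis from 0) in 3 WT and 3 GMS testis libraries. Points are libraries, marked by replicate number, and black bars show the mean and SD. Cyce, Cdt1, Cdc25, Cap-d3 and Borealin had no overlap between groups, and BmGEMININ and Mcm7 overlapped.

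Among the genes that license origins, Cdt1 (gene 100873154), the loader of the MCM helicase, had 819, 646 and 601 reads in WT replicates 1 to 3 and 689, 965 and 1042 in GMS. Scaled to library size these were 30.1, 26.4 and 28.3 CPM in WT and 33.9, 39.7 and 35.9 CPM in GMS. The lowest GMS library lay above the highest WT library, and GMS replicate 2 was the highest of all. Cdt1 rose from 28.3 ± 1.83 to 36.5 ± 2.92 CPM (SD, n = 3), a log2 change of 0.37 with a standard error of 0.09 (edgeR adjusted p = 0.0141). Its fold change had a 95% interval of 1.12 to 1.49. Without GMS replicate 2 the edgeR adjusted p was 0.0565, at a log2 change of 0.30, and without WT replicate 3 the log2 change was 0.32 (edgeR adjusted p = 0.00275).

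BmGEMININ (gene 100873155), which encodes geminin, measured 32.1, 27.7 and 28.9 CPM in the WT libraries and 30.6, 27.7 and 27.7 CPM in GMS. The groups overlapped, and replicate 1 was the highest library in both. The WT mean was 29.6 ± 2.27 CPM and the GMS mean 28.7 ± 1.66 CPM (SD, n = 3). The log2 change was -0.05 with a 95% interval of -0.24 to 0.15 (edgeR adjusted p = 0.692), so the interval of the fold change ran from 0.84 to 1.11. The log2 change without WT replicate 3 was -0.11 (edgeR adjusted p = 0.235). Mcm7 (gene 692463), a subunit of the replicative helicase, measured 24.9, 26.6 and 21.2 CPM in the WT libraries and 29.7, 25.2 and 27.5 in the GMS libraries. WT replicate 3 was the lowest library, and GMS replicate 2 lay below WT replicate 2, so the groups overlapped. The log2 change of Mcm7 was 0.18 with a 95% interval of -0.07 to 0.43 (edgeR adjusted p = 0.229), and it was 0.04 without WT replicate 3 (edgeR adjusted p = 0.680).

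The ratio of Cdt1 to its inhibitor was compared because geminin binds and blocks Cdt1. It is a ratio of transcripts in bulk testis, and the proteins were not measured. Ratios were taken from the authors' RPKM, which scales reads to gene length and library depth. The ratio of Cdt1 to BmGEMININ was 0.110, 0.112 and 0.115 in WT and 0.130, 0.168 and 0.152 in GMS. All GMS libraries lay above all WT libraries, and the WT values were close together. The size of the ratio depends on the 284 bases used for BmGEMININ, while the log2 difference between groups does not depend on length. The mean log2 ratio was 0.41 higher in GMS, 0.43 without WT replicate 3, and the exact two-sided permutation test gave p = 0.1, the smallest that 3 against 3 libraries allow. Adjusted over the 6 ratios computed it was 0.15, an exact permutation p that could not have passed 0.05. The ratio of Mcm7 to Cdt1 was 0.964 ± 0.150 in WT and 0.849 ± 0.134 in GMS (SD, n = 3; exact permutation p = 0.5), and the groups overlapped. Its log2 difference of -0.18 became -0.28 without WT replicate 3 and -0.29 without GMS replicate 1, and -0.06 without WT replicate 2 or GMS replicate 2.

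Both other licensing genes tested passed, where 17.6% of all genes rose. The list held 15 genes, of which 5 had a matching symbol, Cdt1, BmGEMININ and Mcm7 among them. ORC5, a subunit of the origin recognition complex, rose by 0.39 on the log2 scale, from 13.3 ± 0.884 to 17.4 ± 0.285 CPM (SD, n = 3; edgeR adjusted p = 0.00983). ORC1, another subunit, rose by 0.44 on the log2 scale, from 7.48 ± 1.03 to 10.2 ± 0.661 CPM (SD, n = 3; edgeR adjusted p = 0.0277). The ORC1 call was lost without any 1 library other than WT replicate 3, with an edgeR adjusted p of at least 0.0646. None of the 6 tested genes of the replication fork, topoisomerase and nucleotide supply list passed, and their median log2 change was 0.01. The single-strand binding protein gene Rpa1 had 130 ± 4.77 CPM in WT against 123 ± 2.1 in GMS (SD, n = 3), and the topoisomerase gene TOP2 at 99.3 ± 13.1 and 119 ± 5.74 CPM. Pcna, the sliding clamp of DNA polymerases, stood at 64.3 ± 1.92 and 62.3 ± 1.71 CPM.

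For entry into S phase, Cyce (gene 100216493), which encodes cyclin E, had 169, 182 and 215 reads in WT and 266, 344 and 381 in GMS. The levels were 6.21, 7.45 and 10.1 CPM in WT and 13.1, 14.1 and 13.1 CPM in GMS. All GMS libraries were above all WT libraries, and WT replicate 3 was the WT library nearest to GMS. Cyce rose from 7.93 ± 2.01 to 13.5 ± 0.594 CPM (SD, n = 3), a log2 change of 0.77 with a standard error of 0.17 (edgeR adjusted p = 0.0115). The 95% interval of its fold change was 1.29 to 2.26. Without WT replicate 3, which stood at 1.48 times the mean of the other WT libraries, the log2 change was 0.93. The spread of Cyce in WT was 25.3% of its mean, where the number of reads alone would give 7.28%, and it was 4.41% in GMS.

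The kinase gene of cyclin E and E2f1 did not pass the test. CDK2, that kinase, had 10.2 ± 1.02 CPM in WT against 10.5 ± 1.06 in GMS (SD, n = 3; log2 change 0.05). E2f1, the transcription factor of S phase genes, stood at 51.7 ± 0.797 and 51.6 ± 2.1 CPM. The RPKM ratio of Cyce to CDK2 was 0.138, 0.147 and 0.243 in WT and 0.256, 0.336 and 0.266 in GMS. The groups did not overlap, with WT replicate 3 just below the lowest GMS library. The log2 difference was 0.74 (exact permutation p = 0.1, adjusted over the 6 ratios 0.15). Without WT replicate 3 it was 0.995 (exact permutation p = 0.2). Cyca, the cyclin A gene of S and G2 phase, stood at 222 ± 12.7 and 227 ± 3.02 CPM. The cyclin D gene cycD had 21 reads in WT and 34 in GMS and was removed by the filter. None of the 5 tested cyclin, kinase and E2F genes besides Cyce passed, and their median log2 change was 0.05.

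For entry into mitosis, Cdc25 (gene 100216491), the activating phosphatase, measured 21.3, 22.3 and 18.5 CPM in the WT libraries and 23.1, 24.8 and 24.0 in the GMS libraries. The groups did not overlap, and WT replicate 3 was the lowest library. The means were 20.7 ± 1.95 and 24.0 ± 0.876 CPM (SD, n = 3), and the log2 change of 0.21 did not pass (edgeR adjusted p = 0.108). The 95% interval of its fold change was 0.999 to 1.34, and without WT replicate 3 the log2 change was 0.09. With library totals in place of TMM factors Cdc25 was called, at a log2 change of 0.31 (edgeR adjusted p = 0.0247). That scaling moved the median of all genes from 0.05 to 0.15.

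Cdc2, the gene of the CDK1 kinase that Cdc25 activates, measured 61.0, 58.8 and 83.2 CPM in the WT libraries and 88.4, 83.8 and 85.4 in the GMS libraries. WT replicate 3 lay just below the GMS libraries and far above the other WT libraries. The log2 change of Cdc2 was 0.34 (edgeR adjusted p = 0.0742), and without WT replicate 3 it was 0.47 (edgeR adjusted p = 1.15e-06). Without that library 29% of all genes were called in each direction. The RPKM ratio of Cdc25 to Cdc2 was 0.150 ± 0.0392 in WT and 0.132 ± 0.00838 in GMS (SD, n = 3; exact permutation p = 0.5). Its log2 difference was -0.15, and -0.38 without WT replicate 3. The checkpoint kinase gene Chk2 rose by 0.35 on the log2 scale, from 74.4 ± 8.93 to 94.6 ± 6.81 CPM (SD, n = 3; edgeR adjusted p = 0.0278). The Chk2 call was lost without WT replicate 1 or 2 or GMS replicate 1 or 2, with an edgeR adjusted p of 0.0758 to 0.104, and without WT replicate 3 the log2 change was 0.40 (edgeR adjusted p = 3.53e-05). LOC101740671, listed with the synonym PLK1, stood at 126 ± 6.30 and 119 ± 2.51 CPM and did not pass.

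For chromosome structure and segregation, Cap-d3 (gene 100141463), of condensin II, had the fewest reads of the 7 genes, 120, 97 and 92 in WT and 165, 164 and 198 in GMS. The levels were 4.41, 3.97 and 4.34 CPM in WT and 8.13, 6.75 and 6.83 CPM in GMS. All GMS libraries stood well above all WT libraries. Cap-d3 rose from 4.24 ± 0.236 to 7.23 ± 0.776 CPM (SD, n = 3), a log2 change of 0.77 with a standard error of 0.12 (edgeR adjusted p = 0.00239). This was the smallest p of the 7 genes, and the 95% interval of the fold change was 1.40 to 2.07. The log2 change was 0.73 with WT replicate 3 left out (edgeR adjusted p = 0.000289). No other condensin or cohesin gene of the list had a matching symbol.

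Borealin (gene 101738843), of the chromosomal passenger complex, measured 34.5, 34.9 and 34.7 CPM in the WT libraries and 55.0, 38.0 and 58.4 in the GMS libraries. The WT libraries were almost level, while GMS replicate 2 lay close to WT and far below the other GMS libraries. Borealin rose from 34.7 ± 0.200 to 50.5 ± 10.9 CPM (SD, n = 3), a log2 change of 0.54 with a standard error of 0.15 (edgeR adjusted p = 0.0279). The spread was 21.6% of the mean in GMS, where the number of reads alone would give 2.83%, and 0.576% in WT, below the 3.44% from the number of reads. Without WT replicate 1, WT replicate 2, GMS replicate 1 or GMS replicate 3 the call was lost, with an edgeR adjusted p of 0.0622 to 0.101. Without GMS replicate 2 the log2 change was 0.71 (edgeR adjusted p = 0.00123), and without WT replicate 3 it was 0.49 (edgeR adjusted p = 0.00298).

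On the RefSeq assembly Borealin overlaps LOC101738439, another protein-coding gene, and the libraries did not mark the strand. LOC101738439 had 660 reads in WT and 190 in GMS, and it fell by 1.81 on the log2 scale (edgeR adjusted p = 0.000113). Its part in the Borealin count was not tested. No other of the 7 genes overlaps an annotated gene there.

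The other passenger genes did not pass the test over all 6 libraries. Without WT replicate 3 each of the 3 did, where 29% of all genes were called in each direction. Aurora-B, the kinase of the complex, had 48.6 ± 0.858 CPM in WT against 42.4 ± 2.64 in GMS (SD, n = 3; log2 change -0.20, edgeR adjusted p = 0.0534). LOC101744248, listed with the synonym Incenp, stood at 91.6 ± 5.46 and 82.9 ± 1.17 CPM (log2 change -0.14, edgeR adjusted p = 0.101). Iap2, listed with the synonym survivin-2, stood at 55.5 ± 8.58 and 64.5 ± 1.91 CPM (log2 change 0.22, edgeR adjusted p = 0.151). Without WT replicate 3 Iap2 was called higher, at 0.30 (edgeR adjusted p = 0.000255), and Aurora-B and LOC101744248 lower, at -0.26 and -0.24 (edgeR adjusted p = 0.00262 and 0.000476). The RPKM ratio of Borealin to Aurora-B was 0.583, 0.604 and 0.607 in WT and 1.01, 0.772 and 1.21 in GMS. The ratio of Borealin to LOC101744248 was 0.982, 1.02 and 1.11 in WT and 1.79, 1.27 and 1.91 in GMS. For both ratios all GMS libraries lay above all WT libraries, by 0.71 and 0.66 on the log2 scale (exact permutation p = 0.1 each, adjusted over the 6 ratios 0.15). These differences without WT replicate 3 were 0.73 and 0.71.

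**Figure D2:**
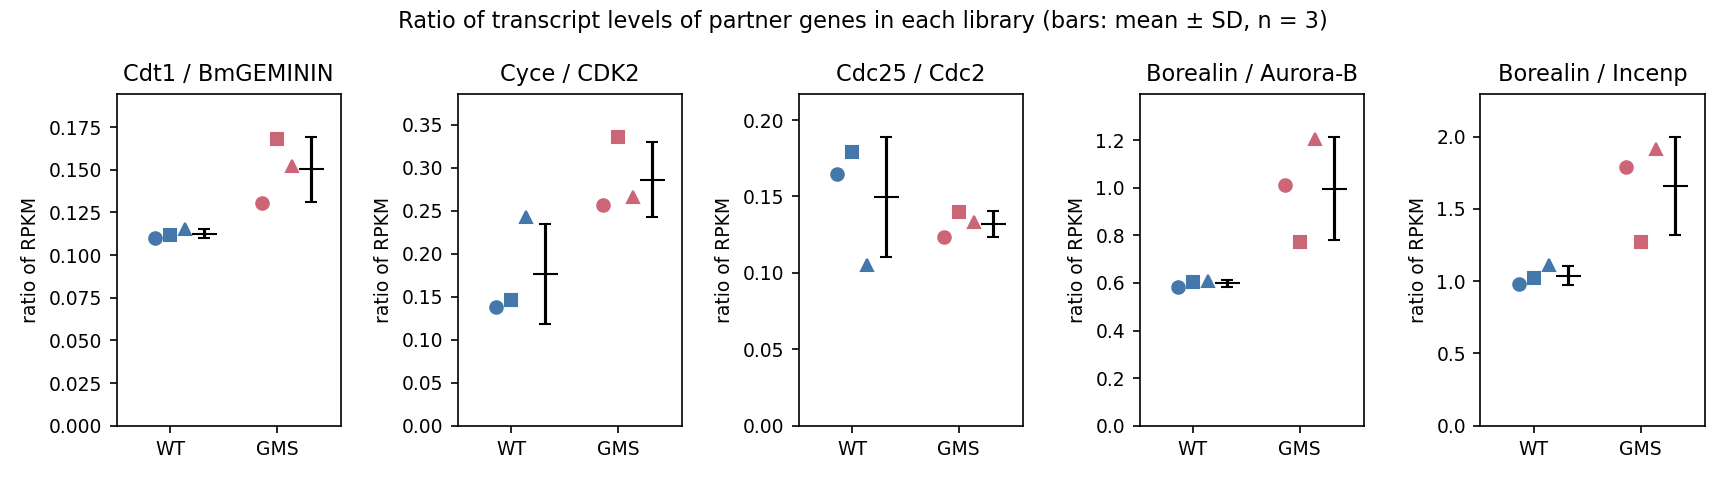
Ratio of the authors' RPKM of a gene to that of a partner gene in 3 WT and 3 GMS libraries, with points marked by replicate number as circle, square and triangle and black bars for the mean and SD. Cdt1 to BmGEMININ, Cyce to CDK2 and both Borealin ratios were higher in every GMS library than in every WT library, and Cdc25 to Cdc2 overlapped.

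Over the pathway lists, 19 genes besides the 7 had a matching symbol and 18 were tested. Most genes written on those lists had no match. Of these 3 rose (ORC1, ORC5 and Chk2), 0 fell and 15 did not pass, with a median log2 change of 0.06. That share is close to the 17.6% of all genes that rose. Without WT replicate 3, 7 rose and 5 fell, beside 29% of all genes called in each direction. TOP2, the cyclin B gene Cycb, Cdc2 and Iap2 then joined those called higher, with log2 changes of 0.33, 0.25, 0.47 and 0.30. Rpa1, RnrS, LOC101740671, Aurora-B and LOC101744248 were called lower, with log2 changes of -0.12, -0.27, -0.17, -0.26 and -0.24. RnrS encodes the small subunit of ribonucleotide reductase, which makes deoxynucleotides. Among 5 CDK genes with roles in transcription or other processes, 1 rose, cdk8 by 0.26 (edgeR adjusted p = 0.0350). Of 3 tested histone genes 1 fell, H2ax-l, with a log2 change of -0.37 (edgeR adjusted p = 0.00329).

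**Figure D3:**
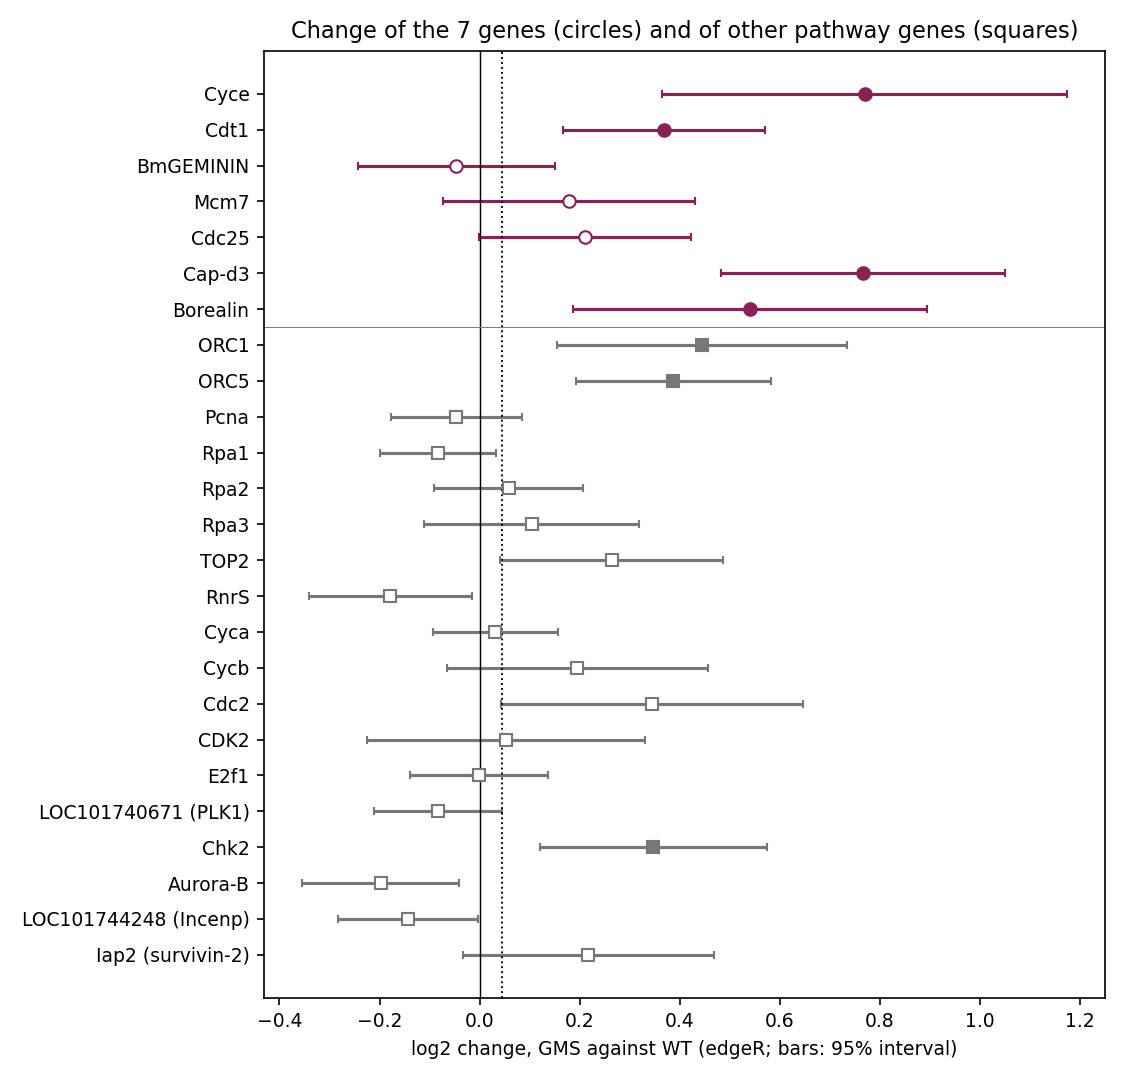
Log2 change of GMS against WT (horizontal axis) with its 95% interval from edgeR for the 7 genes (circles) and 18 other pathway genes (squares), filled where the adjusted p was under 0.05. The dotted line is the median of all genes tested, 0.05. Cyce and Cap-d3 had the largest changes shown, both 0.77, and BmGEMININ lay at -0.05.

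Per gene length the 7 transcripts spanned a wide range. In WT the order by mean RPKM was BmGEMININ at 41.9 ± 3.53, Borealin at 13.4 ± 0.272, Cdt1 at 4.71 ± 0.319, Mcm7 at 4.53 ± 0.600, Cdc25 at 2.0 ± 0.223, Cap-d3 at 1.45 ± 0.0758 and Cyce at 0.615 ± 0.143 (SD, n = 3). Only the neighbours Cdt1 and Mcm7 overlapped between libraries in WT. In GMS the order was BmGEMININ at 42.3 ± 2.63, Borealin at 20.4 ± 4.59, Cdt1 at 6.33 ± 0.449, Mcm7 at 5.33 ± 0.473, Cap-d3 at 2.57 ± 0.287, Cdc25 at 2.40 ± 0.0720 and Cyce at 1.09 ± 0.0371. There Cdt1 lay above Mcm7 in every library, while Cap-d3 and Cdc25 overlapped and exchanged places. The lengths behind the RPKM, recovered from counts and RPKM, were 284 bases for BmGEMININ, 1039 for Borealin, 1179 for Cap-d3, 2157 for Mcm7, 2417 for Cdt1, 4178 for Cdc25 and 5177 for Cyce. The short length used for BmGEMININ raises its RPKM. Whether that length, or the 1179 bases of Cap-d3, covers the whole gene was not tested. On the CPM scale, which takes no account of length, Borealin was the highest of the 7 in both groups.

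**Figure D4:**
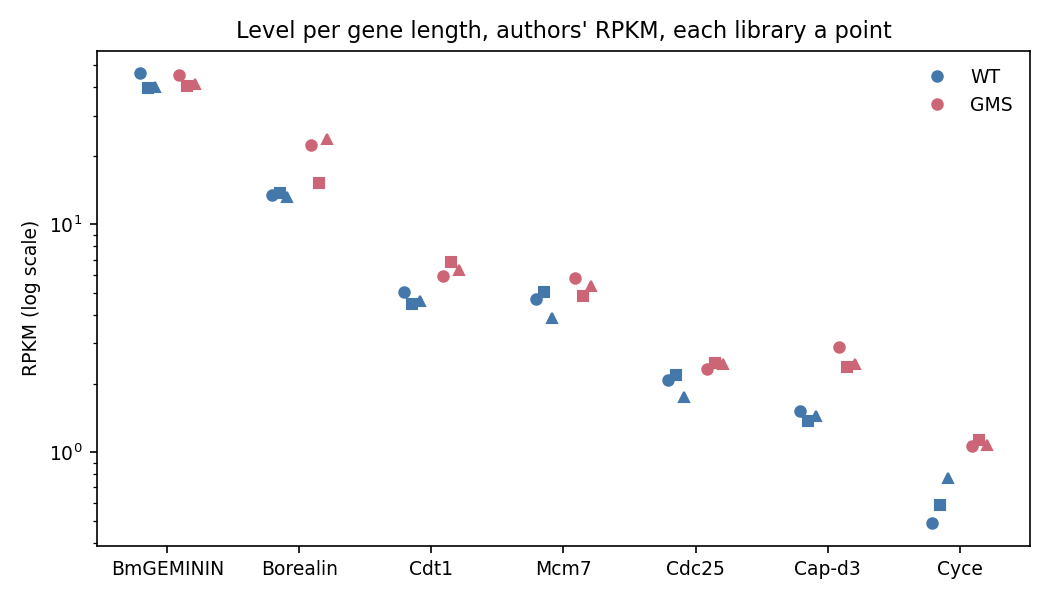
Level per gene length (authors' RPKM, log axis) of the 7 genes in each WT (blue) and GMS (red) library, ordered by the WT mean and marked by replicate number as circle, square and triangle. BmGEMININ was highest in both groups, with means of 41.9 and 42.3, and Cyce was lowest in both.

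Patterns over the 6 libraries were compared by the Euclidean distance of centred log2 CPM. Among the 7 genes Mcm7 and Cdc25 were the closest pair, at 0.25, and Cyce and BmGEMININ the farthest, at 1.19. Among 753 named genes, the nearest to Cyce were Y-e at 0.21 and Adamts-like at 0.22, and the nearest to Cdt1 were MSL1 and K3, both at 0.17. Rad23 at 0.12 and Rpa1 at 0.14 were nearest to BmGEMININ, RpL7A at 0.07 and RpL35A at 0.09 to Mcm7, and Fah at 0.11 to Cdc25. Cbz at 0.18 and CTL10 at 0.23 were nearest to Cap-d3. Borealin had no close match, with RMI1 at 0.36 and Cmc1 at 0.38.

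The tested genes just before and after each of the 7, in order of start position on the RefSeq assembly, were also read. By this order LOC101738439, which overlaps Borealin and fell, was not among the neighbours. Of these 14 neighbours, 2 were higher and 1 was lower in GMS, shares below the 17.6% and 18.6% of all genes. Projectin, beside Cap-d3, was higher by 1.17 on the log2 scale, LOC101738704, beside Borealin, was higher by 0.50, and the tubulin gene Tub3, on the other side of Borealin, had a log2 change of -0.41. None of the 6 neighbours of Cyce, Cdt1 and BmGEMININ passed (edgeR adjusted p of 0.0745 to 0.691).

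Markers of other tissues were read beside these changes. Of 7 fat body genes 0 rose and 6 fell, with a summed level of 377 to 502 CPM in WT and 196 to 210 in GMS, and of 4 haemocyte genes 2 rose and 2 fell, at 88.6 to 109 and 121 to 134 CPM. Of 3 muscle genes 1 rose and 2 fell, at 11.9 to 15.02 and 15.6 to 16.9 CPM. TpnI, which rose, went from a mean of 10.8 CPM in WT to 15.1 in GMS. The 2 that fell were low, A1 from 2.50 to 0.98 CPM and A2 from 0.58 to 0.19 CPM. Of 3 gut genes 0 rose and 2 fell, at 2.26 to 3.56 and 1.03 to 1.58 CPM, and of 2 nervous tissue genes 0 passed, at 21.3 to 24.3 and 22.0 to 24.7 CPM. None of the matched markers was at 0 reads in all libraries. The summed level of the 7 genes was 146 to 153 CPM in WT and 176 to 194 in GMS. The part of cell composition in the changes was not tested.

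**Figure D5:**
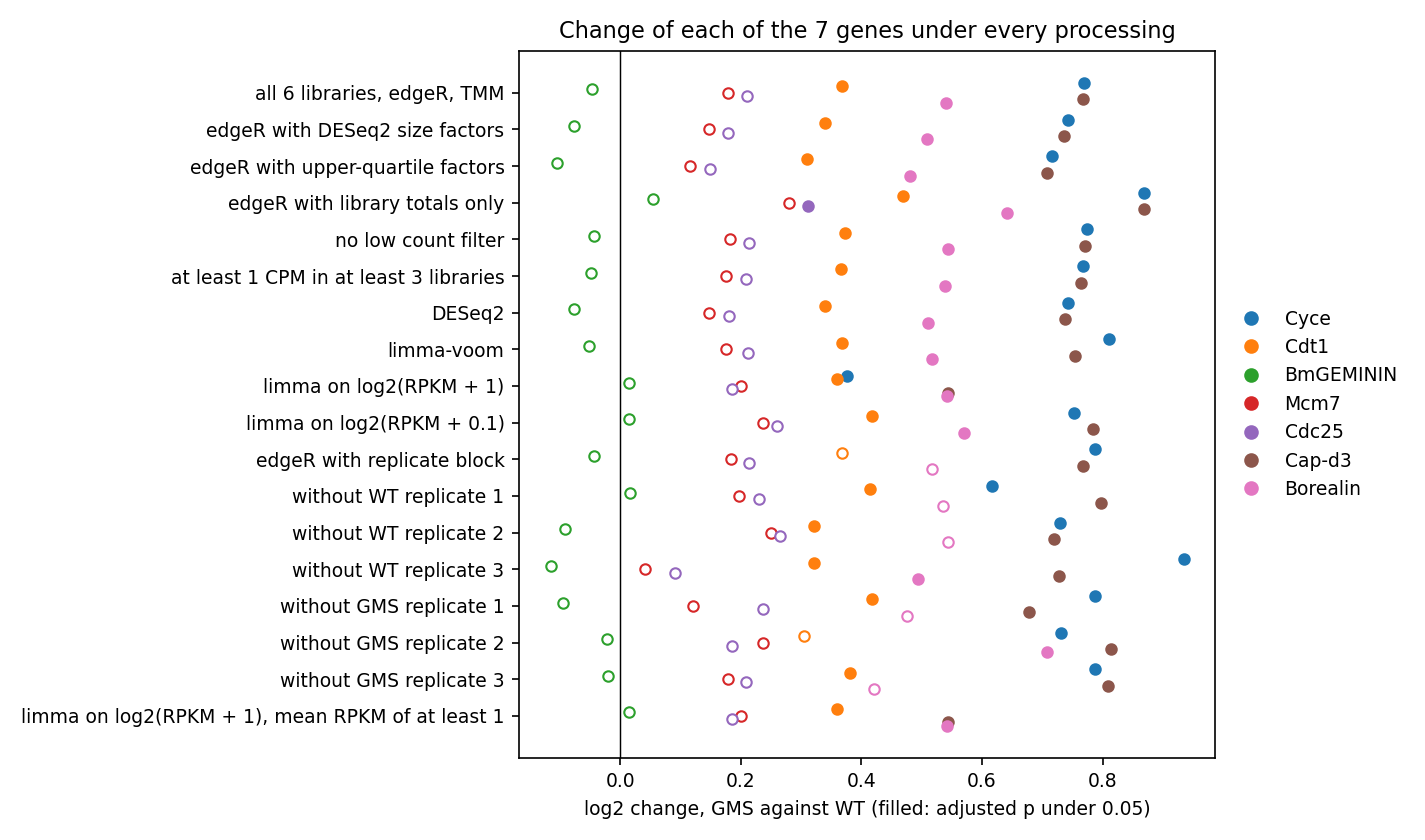
Log2 change of GMS against WT for each of the 7 genes under every processing (vertical axis), filled where the adjusted p was under 0.05. Cap-d3 and Cyce were filled in every row that holds them, Cdt1 and Borealin were open in some, and BmGEMININ crossed 0.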

How the data were processed

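Total RNA of 3 WT and 3 GMS testis samples was sequenced from TruSeq libraries, per the labels' protocols. The tools HISAT2 2.1.0 and featureCounts 1.6.2 come from the submitters' processing notes; the build they ran on is not given in the sources used here. Raw read counts per gene and RPKM per library were deposited by the authors, per the file headers. Names came from the RefSeq table of ASM3026992v2, which held 13030 of 15884 gene numbers, and no coordinate of it is printed. No sequence tables were used here.

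Counts were tested with edgeR 4.0.16 (R 4.3.3): TMM factors, filterByExpr (12029 genes kept), group as the only term, quasi-likelihood F test and Benjamini-Hochberg adjustment over all genes tested. The edgeR test was checked on simulated data. A floor of 3 counts is 0.106 to 0.153 CPM. CPM means and SDs are over 3 libraries, and fold changes are fitted. RPKM ratios were compared by exact permutation.

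The genes and lists were chosen with earlier results of these data known. Of the pathway genes written, 26 had a matching symbol or synonym, the 7 described included, after synonym matches to a nitric oxide synthase gene and to an unrelated LOC gene were dropped. Matches were 5 of 15 licensing genes, 6 of 30 for replication fork and nucleotide supply, and 7 of 16 cyclin, kinase and E2F genes. For mitotic entry 3 of 8 matched, for condensin and cohesin 1 of 15, and for passenger complex, kinetochore and division 4 of 17. Genes were named by a rule: the 7, from each list up to 4 called genes or, with none called, the 2 of highest CPM, and the 2 nearest patterns, of which 1 gene is not reported here. Pcna, CDK2, E2f1, RnrS, Cycb, cycD, LOC101740671, Aurora-B and the CDK and histone lists were chosen after the files were seen. So were the markers given by name, the gene overlapping Borealin, the neighbouring genes, and all ratios but Cdt1 to BmGEMININ. Alternatives were DESeq2 1.42.0, limma 3.58.1 (voom, and log2 RPKM plus 1 or 0.1), other scalings and filters, a replicate block, and leaving out each library.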

Additional observations from a re-analysis of the deposited data

How the results depend on the processing

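Cyce and Cap-d3 kept their direction and call under every alternative that tested them (log2 changes of 0.38 to 0.93 and 0.54 to 0.87). Both were lowest on log2(RPKM + 1), which understates low genes. Cyce was not tested with a mean RPKM of at least 1, and its highest edgeR adjusted p was 0.0467, without GMS replicate 2. Mcm7 stayed uncalled throughout. With single libraries left out, the range was 0.30 to 0.42 for Cdt1, 0.42 to 0.71 for Borealin and -0.11 to 0.017 for BmGEMININ, which was above 0 without WT replicate 1. BmGEMININ was also above 0 with library totals (0.055) and on log2 RPKM (0.014 with a pseudocount of 1, 0.015 with 0.1, and 0.014 with a mean RPKM of at least 1), uncalled in each. Cdc25 was called with library totals (0.31).

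Same-numbered libraries did not deviate together (correlations of 0.05, -0.17 and -0.17), and the main test did not pair them. With 3 libraries a group these correlations cannot settle whether the numbers mark a pairing. With the replicate block 2 of the 7 genes were called, Cdt1 (0.37, edgeR adjusted p = 0.0604) and Borealin (0.52, edgeR adjusted p = 0.0530) being lost, and 1 of 18 pathway genes. For the Cdt1 to BmGEMININ ratio the paired difference of 0.41 equals the unpaired one by construction, and its exact sign-flip p of 0.25 is the smallest that 3 pairs allow.

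Over all genes, 3264 were higher with library totals and 1276 lower with a mean RPKM of at least 1, against 2115 and 2242. Leaving out 1 library gave 1360 to 3549 higher and 1634 to 3555 lower, the upper ends without WT replicate 3. Of the other pathway genes, 5 were higher with library totals, limma-voom and log2 RPKM with either pseudocount, and 6 with a mean RPKM of at least 1. A total of 1 was lower with DESeq2 size factors, upper-quartile factors, the filter of 1 CPM, DESeq2 and limma-voom, Aurora-B in each. Leaving out 1 library gave 1 to 7 higher and 0 to 5 lower, and 3 to 4 of the 7 genes higher. The ratio of Cdc25 to Cdc2 ranged from -0.38 to 0.0012 on the log2 scale. The cause of these shifts was not tested. Read numbers limit Cap-d3 most, with 92 to 198 reads a library.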
